A study of Homo sapiens with 10 samples.

Results

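The genes encoded by human mitochondrial DNA were taken from the RNA-seq of cells derived from the human embryonic stem cell line H9. Members were all genes whose name begins with MT- in the deposited table, which gave 37 of 64940 genes. They comprise 13 protein genes, 2 rRNA genes and 22 tRNA genes, and each member was listed above 0 in every library. The rule used names only and no measured value. Values are TPM, a level scaled to the gene's length and to the same total in every library.

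Mitochondrial DNA is a small circular genome kept in many copies per cell. It is transcribed from both strands as long precursors, from which the tRNAs that lie between most of the protein and rRNA genes are cut out, and the RNAs so released can differ widely in lifetime. Its protein genes encode core subunits of the respiratory chain and of ATP synthase, while its rRNAs and tRNAs serve only the translation of those proteins inside the organelle. All the factors that copy, transcribe, cut, modify and charge these RNAs are nuclear-encoded.

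The study asked how DAZL, a germ cell RNA-binding protein, acts on miRNA biogenesis and proliferation in human primordial germ cell-like cells (hPGCLCs), and the RNA-seq compared 2 control libraries with 2 libraries of hPGCLCs overexpressing DAZL (oeDAZL). The control samples carry the genotype label wt and are labelled as SD cells from hESCs that differentiated spontaneously, whereas the series' design text calls them WT PGCLCs. By the study's methods, hESCs under BMP4 and BMP8a received lentivirus carrying DAZL-GFP or GFP alone and were collected by FACS, so oeDAZL and control share the line and, if the methods apply to these libraries, the cytokines, the vector type and the sort. If the sample labels are right instead, DAZL and the kind of differentiation cannot be told apart.

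DAZL itself, on chr3:16586792-16670306 (hg38), was at 0 and 0.0333 TPM in the controls and reached 102 and 101 TPM with oeDAZL, as the labels state. Of 10 PGC marker genes, 6 passed the filter of a mean of 1 TPM, and none of the 6 had an unadjusted P under 0.05 in limma. TFAP2C was at 53.9, 49.1, 44.3 and 50.4 TPM (control 1, control 2, oeDAZL 1, oeDAZL 2). In the same order KIT was at 7.70, 6.44, 6.23 and 6.24 TPM. PRDM1 was at 2.03, 2.32, 1.87 and 1.47 TPM, and DPPA3 at 2.17, 0.716, 1.45 and 1.19 TPM. SOX17 lay between 2.52 and 3.35 TPM and NANOS3 between 0.732 and 1.66 TPM. UTF1 reached at most 0.413 TPM and CD38 0.160 TPM, and DPPA5 and TCL1A were listed at 0 in every library. Most of the listed PGC markers, but not TFAP2C, were thus low or at 0 in both groups. Some markers of other cell types differed between the groups at an unadjusted P under 0.05 in limma, which 5.02% of all tested genes passed as higher and 15.2% as lower. Of 4 tested pluripotency genes POU5F1 was higher in oeDAZL (log2 fold change 0.79), of 6 mesoderm and mesenchyme genes HAND1 was higher (0.32) and COL3A1 (−1.25), COL1A1 (−0.55) and TBXT (−0.97) were lower, and of 5 amnion and trophoblast genes CGA (−1.18), ISL1 (−0.49) and VTCN1 (−0.38) were lower. Likewise, of 3 tested neural genes NES was higher (0.52) and PAX6 (−1.30) and OTX2 (−0.87) were lower, and of 5 endoderm genes AFP was lower (−1.04). PAX6 was at 3.83 and 1.14 TPM in the control and 0.0967 and 0.558 TPM in the oeDAZL libraries. TBXT was at 2.49 and 1.25 against 0.319 and 0.546 TPM. Both genes passed the filter only through the controls, so their lower values carry no weight. Whatever the P, 1 tested pluripotency gene had a change above 0 and 3 below, where 34.7% of all genes were above 0. The numbers above and below 0 were 1 and 5 for mesoderm, 1 and 4 for amnion, 1 and 2 for neural and 1 and 4 for endoderm genes. For the PGC genes they were 0 and 6, with a median change of −0.14 where that of all tested genes was −0.08. Only COL3A1 among these markers had a Benjamini-Hochberg adjusted p under 0.05 in limma (0.0344). The part of these cell type markers in the mitochondrial values was not tested, and in bulk RNA fewer cells of a type and less RNA per cell cannot be told apart.

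The members lie close together from chrM:577-16023 of the mitochondrial genome of 16569 bases, with the non-coding control region outside this span. Their coordinates were matched by gene ID to GENCODE 44 on hg38 for all 37. Transcription from the heavy strand yields 28 of them, with 12 of the protein genes, both rRNAs and 14 tRNAs, and transcription from the light strand yields MT-ND6 and 8 tRNAs. The sequences of the 5 neighbouring tRNA genes between MT-ND2 and MT-CO1 are shown because they hold the lowest and the highest tRNA levels and 4 of the 16 members with an unadjusted P under 0.05 between the groups. Each is written 5′ to 3′ as DNA on the strand of the tRNA, with the anticodon in capitals, from hg38 and GENCODE 44.
MT-TW (tryptophan, chrM:5512-5579, + strand): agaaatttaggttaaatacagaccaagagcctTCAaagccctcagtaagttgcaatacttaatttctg
MT-TA (alanine, chrM:5587-5655, − strand): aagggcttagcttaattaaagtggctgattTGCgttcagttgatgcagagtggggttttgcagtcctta
MT-TN (asparagine, chrM:5657-5729, − strand): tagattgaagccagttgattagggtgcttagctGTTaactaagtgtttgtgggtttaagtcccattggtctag
MT-TC (cysteine, chrM:5761-5826, − strand): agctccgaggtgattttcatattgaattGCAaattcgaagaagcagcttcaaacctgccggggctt
MT-TY (tyrosine, chrM:5826-5891, − strand): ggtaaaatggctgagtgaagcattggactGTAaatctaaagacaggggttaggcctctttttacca
Of these, MT-TW is read from the heavy strand together with MT-ND2 and MT-CO1, whereas the other four lie on the opposite strand.

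Mitochondrial genes held 8 of the 10 highest mean TPM values among all genes, 12 of the 20 highest and 17 of the 50 highest. Their means spanned 609-fold, from 22703 TPM for MT-CO1, the catalytic core subunit of cytochrome c oxidase, to 37.3 TPM for MT-TW. MT-CO1 stood alone at the top, at 22321 and 22982 TPM in the control and 22506 and 23002 TPM in the oeDAZL libraries, above every value of any other member. Next came MT-ATP8, MT-ATP6, MT-CO2 and MT-CO3 with means between 10376 and 12224 TPM, whose ranges over the 4 libraries overlapped from each to the next. MT-ND4, MT-ND4L and MT-RNR2 followed at means of 8955 to 9536 TPM, again with overlapping ranges. Below a gap, MT-ND5 was at a mean of 4877 TPM, and MT-ND1, MT-ND6, MT-CYB and MT-ND2 at 4008 to 4483 TPM overlapped in order. MT-ND3, with a mean of 1438 TPM, was the lowest protein gene and lay among the tRNAs.

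The tRNA genes covered a 77.5-fold range of mean level, from MT-TW to MT-TY. MT-TY was at 2627 and 2632 TPM in the control and 3230 and 3061 TPM in the oeDAZL libraries, against 30.7, 37.9, 42.2 and 38.1 TPM for MT-TW. MT-TA, MT-TN, MT-TC and MT-TY reached 30.04%, 54.8%, 60.8% and 72.05% of the mean TPM of MT-ND2, the lower of the flanking protein genes. Of MT-CO1, the higher, they reached 5.30%, 9.67%, 10.7% and 12.7%. MT-TW reached 0.93% of MT-ND2 and 0.164% of MT-CO1. A like contrast lay between MT-CO1 and MT-CO2, where the light-strand serine tRNA gene MT-TS1 was at 1638, 1922, 1939 and 2007 TPM and the heavy-strand aspartate tRNA gene MT-TD next to it at 68.5, 80.6, 99.6 and 98.3 TPM. Light strand did not always mean high, since the glutamine tRNA gene MT-TQ was at a mean of 85.9 TPM. The strand setting of the libraries is not given in the sources used here, so reads from a light-strand gene and from an opposite precursor cannot be told apart, and reads of a short tRNA gene can come from the mature tRNA or from a longer precursor.

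As a share of the library, mitochondrial genes took 12.6% and 13.4% of TPM in the controls and 14.1% and 13.9% in the oeDAZL libraries. The means were 12.95% ± 0.565 (SD, n = 2) and 13.99% ± 0.184 (SD, n = 2), a difference of 1.04 percentage points with both oeDAZL libraries above both controls. The exact two-sided permutation test gave p = 0.333, the smallest that 2 against 2 libraries can give, so no share can pass a threshold of 0.05 in this design. Leaving out each library in turn gave differences between 0.643 points (without control replicate 1) and 1.44 points (without control replicate 2).

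The classes did not move alike. Protein genes took 10.2% and 10.8% in the control and 11.4% and 11.3% in the oeDAZL libraries, and tRNA genes took 1.40% and 1.47% against 1.70% and 1.64%. The rRNA genes went the other way, from 1.001% and 1.03% to 0.977% and 0.968%. In these 3 classes the groups did not overlap (exact permutation p = 0.333 each). MT-CO1, the most abundant member, took 2.23% and 2.30% against 2.25% and 2.30%, and there the groups overlapped.

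Within the mitochondrial TPM itself the protein share was 80.9% and 81.2% in the control and 81.0% and 81.2% in the oeDAZL libraries, which overlapped. The tRNA share was 11.1% and 11.03% against 12.1% and 11.8%, and the rRNA share was 7.97% and 7.73% against 6.92% and 6.98%. On the log2 scale the ratio of summed tRNA to summed protein TPM was higher in oeDAZL by 0.11 and that of rRNA to protein was lower, with a difference of −0.18, and neither set of values overlapped between the groups (exact permutation p = 0.333 each). These ratios use mitochondrial genes alone and so do not depend on how the rest of the library was scaled. Weighting TPM by gene length gave 0.14 and −0.14 in their place. The ratio of MT-RNR1 to MT-RNR2 differed by −0.0045 with overlapping groups, less than the SD of 0.10 between the control libraries.

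Gene by gene, 34 of the 37 members had a log2 fold change above 0 on the log2(TPM + 1) scale, against 34.7% of all 16687 genes tested. Their median was 0.17, where the median of all tested genes was −0.08. In limma, 16 of the 37 were higher in oeDAZL at an unadjusted P under 0.05, a rule that 5.02% of all genes passed in this direction, and none was lower, a rule that 15.2% of all genes passed. None reached a fold change of 2 with that P, which 0.126% of all genes did as higher and 0.563% as lower. After Benjamini-Hochberg adjustment in limma over all tested genes no member passed 0.05 either way (0.0240% of all genes were higher and 0.0360% lower), and the lowest adjusted p was 0.0962, for MT-TA. Both oeDAZL libraries lay above both controls for 25 of the 37 members (16.0% of all genes) and below them for 2, the rRNA genes (38.4% of all genes), and the other 10 overlapped. The differences were thus small, with log2 fold changes between −0.07 and 0.41, and they were relative to a library in which most genes were lower in oeDAZL.

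How far this holds depends on the scaling and on single libraries. TPM scaled to the summed mitochondrial protein genes moved the median of all genes by −0.10. In limma 6 members then stayed higher at an unadjusted P under 0.05, namely MT-CYB, MT-TC, MT-TD, MT-TI, MT-TN and MT-TQ, and MT-RNR2 was lower. Over all genes 313 were then higher and 3963 lower at that threshold. With median-of-ratios scaling 23 members were higher. Over all genes the numbers with an unadjusted P under 0.05 were then 1873 higher and 1369 lower, in place of 838 and 2530. Of the 37 members, 33 were lower in control replicate 1 than in control replicate 2 (41.6% of all genes), and 29 were higher in oeDAZL replicate 1 than in oeDAZL replicate 2 (47.9% of all genes). The median log2 fold change of the members was 0.15 without oeDAZL replicate 1 and 0.18 without oeDAZL replicate 2. It was 0.09 without control replicate 1 and 0.24 without control replicate 2. The median of all tested genes lay between −0.10 and −0.06 in these fits.

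All 13 protein genes had log2 fold changes above 0, between 0.01 and 0.28, and 4 of them had an unadjusted P under 0.05. The complex V genes MT-ATP8 and MT-ATP6 encode subunits of ATP synthase, the enzyme that makes ATP from the proton gradient. MT-ATP8 was at 10328 and 11921 TPM in the control and 13506 and 13139 TPM in the oeDAZL libraries, a log2 fold change of 0.26 (SE 0.09). MT-ATP6 was at 10114 and 10776 against 11915 and 11618 TPM, a change of 0.17 (SE 0.07). Both oeDAZL libraries were above both controls in each, with limma adjusted p-values of 0.186 and 0.237.

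MT-CYB encodes cytochrome b, the only subunit of complex III that mitochondrial DNA supplies. It was at 3626 and 3907 TPM in the controls against 4677 and 4466 TPM with oeDAZL. The log2 fold change of 0.28 (SE 0.07, limma adjusted p = 0.117) was the largest among the protein genes, it was at least 0.17 under all 14 alternative settings tried, and the groups did not overlap.

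Complex I passes electrons from NADH into the chain and takes 7 subunits from mitochondrial DNA. MT-ND3 was at 1277 and 1368 TPM in the control and 1566 and 1542 TPM in the oeDAZL libraries, with a log2 fold change of 0.23 (SE 0.06, limma adjusted p = 0.123), and was the only gene of the 7 with an unadjusted P under 0.05. MT-ND6, the lone light-strand protein gene, was at 3866 and 4310 against 4646 and 4532 TPM, a difference of 0.17 (SE 0.07) that missed that threshold. Both genes had non-overlapping groups. MT-ND5 was at 4822 and 4905 against 4960 and 4820 TPM and MT-ND1 at 4139 and 4573 against 4731 and 4489 TPM, and in these the groups overlapped. MT-ND2, MT-ND4 and MT-ND4L differed by 0.14, 0.09 and 0.10 with non-overlapping groups and unadjusted P above 0.05.

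Complex IV, cytochrome c oxidase, hands the electrons to oxygen, and none of its 3 mitochondrial subunits had an unadjusted P under 0.05. MT-CO2 was at 9994 and 10688 against 11365 and 11019 TPM, and MT-CO3 at 9929 and 10229 against 10723 and 10625 TPM, with differences of 0.11 and 0.08. MT-CO1 differed by 0.01 (SE 0.07). Within the mitochondrial TPM the share of complex IV was 33.7% and 32.9% in the control and 31.6% and 32.2% in the oeDAZL libraries, and that of complex V was 16.3% and 17.02% against 18.01% and 17.9%, without overlap in either (exact permutation p = 0.333 each). The ratio of MT-CO1 to MT-CO2 was 2.23 and 2.15 against 1.98 and 2.09.

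The rRNA genes encode the RNAs of the small and the large subunit of the mitochondrial ribosome. MT-RNR1 was at 1032 and 972 TPM in the control and 949 and 964 TPM in the oeDAZL libraries, and MT-RNR2 at 8966 and 9333 against 8816 and 8704 TPM. Both oeDAZL libraries lay below both controls in each gene. The log2 fold changes of −0.07 (SE 0.05) and −0.06 (SE 0.06) were small, had limma adjusted p-values of 0.525 and 0.611, and were close to the median of all genes. With median-of-ratios scaling they turned to 0.03 and 0.04. MT-RNR2 was 8.69 and 9.60 times MT-RNR1 in the controls and 9.29 and 9.03 times in the oeDAZL libraries. The RNA selection used for the libraries is not given in the sources used here, so these levels cannot be read as the make-up of total RNA.

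Of the 22 tRNA genes, 21 had log2 fold changes above 0 and 12 were higher at an unadjusted P under 0.05, beside 5.02% of all genes. By strand these 12 were 7 of the 8 light-strand genes, with a median change of 0.26 over the 8, and 5 of the 14 heavy-strand genes, with a median of 0.20 over the 14. The difference between the strands was not tested. All 8 light-strand genes had non-overlapping groups, with oeDAZL above the controls, against 7 of 14 for the heavy strand and 16.0% of all genes.

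The neighbouring light-strand genes MT-TA, MT-TN, MT-TC and MT-TY had log2 fold changes within 0.26 to 0.30. MT-TA was at 1103 and 1087 TPM in the control and 1336 and 1289 TPM in the oeDAZL libraries. MT-TN was at 1997 and 1983 against 2444 and 2354 TPM, and MT-TC at 2159 and 2217 against 2776 and 2597 TPM. In all 4 genes, MT-TY included, the control replicates were close and both oeDAZL libraries were above them, with limma adjusted p-values between 0.0962 and 0.110. The ratio of MT-TY to MT-TA hardly moved, at 2.38 and 2.42 in the control and 2.42 and 2.37 in the oeDAZL libraries.

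The largest log2 fold changes belonged to low tRNAs. MT-TD, the aspartate tRNA gene, differed by 0.41 (SE 0.09, limma adjusted p = 0.105), from 68.5 and 80.6 TPM to 99.6 and 98.3 TPM. MT-TQ was at 68.9 and 79.3 TPM in the control and 105 and 90.5 TPM in the oeDAZL libraries, and the isoleucine tRNA gene MT-TI at 96.8 and 119 against 152 and 132 TPM. Both differed by 0.39 (SE 0.10 and 0.12), with non-overlapping groups. MT-TI and MT-TQ overlap by 3 bases on opposite strands, so they may not be independent measurements, which was not tested.

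Among the other heavy-strand tRNAs, MT-TL1, a leucine tRNA gene, was at 638 and 647 against 763 and 744 TPM, a log2 fold change of 0.23 (SE 0.05). The glycine tRNA gene MT-TG was at 520 and 530 against 616 and 624 TPM, a change of 0.24 (SE 0.05), and the arginine tRNA gene MT-TR at 428 and 465 against 499 and 523 TPM, a change of 0.20 (SE 0.06). Of the light-strand genes outside the group of neighbours above, MT-TE (glutamate) was at 506 and 563 against 628 and 594 TPM and MT-TP (proline) at 263 and 283 against 310 and 307 TPM, changes of 0.19 and 0.18. In all 5 genes the groups did not overlap and the unadjusted P was under 0.05. MT-TS1, the remaining light-strand tRNA, differed by 0.15 (SE 0.08) and missed that threshold.

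The other heavy-strand tRNAs did not pass. MT-TF, MT-TK, MT-TM, MT-TH, MT-TS2, MT-TL2 and MT-TT had overlapping groups, and MT-TV and MT-TW did not overlap but had unadjusted P above 0.05. MT-TK shows the spread, with 146 and 150 TPM in the control and 177 and 135 TPM in the oeDAZL libraries. MT-TL2, the lone tRNA gene with a change below 0 (−0.02), was at 336 and 406 against 377 and 355 TPM, and it turned to 0.09 with median-of-ratios scaling.

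Read along the genome, neighbours were alike in some places and not in others. The places below were picked after their values were seen and carry no test. From chrM:9991-10469, MT-TG, MT-ND3 and MT-TR had log2 fold changes of 0.20 to 0.24, all with an unadjusted P under 0.05. In contrast, from chrM:12138-14148, MT-TH, MT-TS2, MT-TL2 and MT-ND5 lay between −0.02 and 0.05 with overlapping groups throughout. Elsewhere neighbours were unlike, with MT-RNR2 at −0.06 beside MT-TL1 at 0.23, MT-TY at 0.26 beside MT-CO1 at 0.01, and MT-TD at 0.41 beside MT-CO2 at 0.11.

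Some members share bases, and their values are uncertain where reads fall in the shared part. MT-ATP8 and MT-ATP6 share 46 bases, shown here with the MT-ATP6 start codon and the MT-ATP8 stop codon in capitals (chrM:8527-8572, + strand, hg38).
MT-ATP8 and MT-ATP6 overlap: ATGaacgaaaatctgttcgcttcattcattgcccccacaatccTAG
The ratio of MT-ATP8 to MT-ATP6 TPM was 1.02 and 1.11 in the control and 1.13 and 1.13 in the oeDAZL libraries. MT-ND4L and MT-ND4 share 7 bases and were at ratios of 0.957 and 0.952 against 0.973 and 0.943, which overlapped. MT-ND6, which abuts MT-ND5 on the opposite strand, was at 0.802 and 0.879 of the MT-ND5 level in the control and at 0.937 and 0.940 in the oeDAZL libraries, without overlap (exact permutation p = 0.333).

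Nuclear DNA holds old copies of mitochondrial sequence, and reads of the 2 kinds can be assigned to either. The table lists 422 genes named as such copies, of which 352 were at 0 in every library and 12 had a mean of at least 1 TPM. MTATP6P1, a copy on chr1:633696-634376 with 98.5% identity to MT-ATP6 and 10 mismatches in 681 aligned bases, was at 1438 and 1547 TPM in the control and 1622 and 1597 TPM in the oeDAZL libraries. That was 14.2%, 14.4%, 13.6% and 13.7% of the MT-ATP6 level. To show how little separates them, the 60-base stretch with the most mismatches is given from hg38, with the 3 mismatched bases in capitals.
MT-ATP6 (chrM:8642-8701, + strand): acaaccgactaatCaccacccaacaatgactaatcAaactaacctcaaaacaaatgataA
MTATP6P1 (chr1:633811-633870, + strand): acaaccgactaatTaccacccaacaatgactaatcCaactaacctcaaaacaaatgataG
Likewise MTND2P28 stood at 12.8%, 13.6%, 12.95% and 12.3% of MT-ND2, and MTCO1P12 at 1.66%, 1.71%, 1.70% and 1.69% of MT-CO1. None of these 3 copies had an unadjusted P under 0.05 between the groups in limma, and the other 9, MTND1P23, MTND4P12, MTATP8P1, MTCO3P12, MTRNR2L12, MTCYBP21, MTND5P1, MTCO2P12 and MTND4LP30, were at 0.277% or less of their mitochondrial gene. Counting all 422 copies as mitochondrial changed the difference in share from 1.04 to 1.06 percentage points. Among the 12 copies with a mean of at least 1 TPM, only MTCYBP21 had an unadjusted P under 0.05 in limma. It differed by −0.61 on the log2 scale (limma adjusted p = 0.229). Its controls were at 1.99 and 1.62 TPM, against 0.959 and 0.723 TPM with oeDAZL. MTCYBP21 thus passed the filter of a mean of 1 TPM only through the controls, so its lower value carries no weight. Whether reads of the large copies belong to mitochondrial DNA was not tested.

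The study describes GUU as the triplet that the RNA recognition motif of DAZL prefers, and the letters GTT were counted in each member on the strand of its own transcript. They occurred 0.606 times per 100 bases in the protein genes, 1.27 times in the rRNA genes and 2.12 times in the tRNA genes, of which 17 of 22 held at least 1. MT-ND6 stood apart from the other protein genes with 4.19 per 100 bases, and MT-CYB was lowest with 0.0876. By strand, 10 of 14 heavy-strand and 7 of 8 light-strand tRNA genes held GTT. Base composition differs between the strands, and of all 69-base windows of mitochondrial DNA, the median tRNA length, 34.2% held GTT on the strand of the heavy-strand transcripts and 84.6% on the other. Per 100 bases GTT occurred 0.628 times on the former and 2.99 times on the latter, which is the strand of the MT-ND6 transcript. A match is a description of letters and no sign of binding.

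The nuclear genes that act on mitochondrial DNA and RNA were examined in 5 lists of 89 genes in all, of which 88 were tested. In oeDAZL, 32 were higher and 56 lower, where 34.7% of all genes had a change above 0. The median change of the 88 was −0.04 on the log2 scale, where that of all genes was −0.08 and that of the members 0.17. At an unadjusted P under 0.05 in limma, 5 were higher and 7 lower, none with an adjusted p under 0.05. The shares of all genes at that threshold were those given above, 5.02% higher and 15.2% lower.

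Of 15 genes of mitochondrial DNA upkeep and transcription, POLG, the catalytic subunit of the mitochondrial DNA polymerase, was the only gene with an unadjusted P under 0.05. It was at 59.9 and 51.4 TPM in the control and 42.7 and 43.6 TPM in the oeDAZL libraries, a log2 fold change of −0.36 (SE 0.09, limma adjusted p = 0.126). TFAM, which packages mitochondrial DNA and starts its transcription, was at 36.98 and 38.2 against 43.2 and 40.7 TPM, a difference of 0.16 (SE 0.07) that missed that threshold. Of 22 genes of RNA processing and stability, GRSF1, an RNA-binding protein of mitochondrial RNA granules, was at 46.6 and 47.3 against 53.8 and 51.7 TPM (0.17, SE 0.07).

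Among 22 genes that modify mitochondrial rRNA and tRNA, 3 were higher and 2 lower at an unadjusted P under 0.05. MTERF4 and NSUN4, partners in a complex that methylates the small rRNA and acts in ribosome assembly, were both higher. MTERF4 was at 30.9 and 31.3 TPM in the control and 43.4 and 43.8 TPM in the oeDAZL libraries (0.47, SE 0.07, limma adjusted p = 0.0896), and NSUN4 at 15.3 and 13.8 against 21.3 and 18.2 TPM (0.41, SE 0.11). YRDC, which acts in making the t6A base of tRNAs, was higher by 0.21. GTPBP3, which modifies the wobble base of mitochondrial tRNAs, and the tRNA methyltransferase TRMT61B had log2 fold changes of −0.31 and −0.24.

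A list of 22 genes that charge the tRNAs holds the mitochondrial aminoacyl-tRNA synthetases and QRSL1, GATB and GATC, subunits of the amidotransferase that makes glutaminyl-tRNA. Of the 22, 4 were lower at that threshold, beside 15.2% of all genes, and none was higher, beside 5.02%. VARS2, for valine, was at 6.005 and 5.39 TPM in the control and 3.62 and 2.27 TPM in the oeDAZL libraries (−0.78, SE 0.21, limma adjusted p = 0.144). WARS2, AARS2 and CARS2, for tryptophan, alanine and cysteine, differed by −0.32, −0.23 and −0.16. Of 7 tested nuclear regulators of mitochondrial biogenesis, PPARGC1A, a transcriptional coactivator, was at 2.62 and 3.83 against 5.68 and 5.68 TPM (0.68, SE 0.19, limma adjusted p = 0.155), and the other 6 had unadjusted P above 0.05.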

How the data were processed

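The RNA of 4 libraries was sequenced, 2 per group. The authors deposited TPM per gene, 1 column per library. By the study's methods and the submitters' processing notes, reads were trimmed with Trim Galore, whose version differs between these sources, mapped to hg38 with HISAT2 2.1.0, kept if unique and quantified with StringTie 2.1.4. The annotation release, strand setting and RNA selection are not given in the sources used here. TPM keeps no depth, so depth is unknown and precision rests on n = 2 libraries. The labels do not say that replicates were separate cultures, so P-values measure only the spread between these libraries, which may be technical.

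Of 65003 entries, 45 pseudoautosomal entries and 18 repeats were left out. The 16687 genes that averaged at least 1 TPM were fitted on log2(TPM + 1), which understates changes of low genes, with limma 3.58.1 in R 4.3.3 (trend, no covariates) and adjusted over all of them by Benjamini-Hochberg. The fold threshold was 2 and the P threshold 0.05. Shares and ratios were compared by exact two-sided permutation. The fit was tested on simulated data, with changes larger than those of the members.

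The rule named every mitochondrial gene, nuclear copies of at least 1 TPM, DAZL, and list genes under an unadjusted P of 0.05 or, in a list without any, the largest change (NANOS3). The lists are mitochondrial DNA upkeep, RNA processing, RNA modification, tRNA charging, biogenesis regulators and markers of PGCs, pluripotency, mesoderm, amnion, neural cells and endoderm. TFAM and the PGC markers TFAP2C, KIT, PRDM1, DPPA3, SOX17, UTF1, CD38, DPPA5 and TCL1A were named besides these after their values were seen. QRSL1, GATB and GATC were named for their function. Members and lists were chosen with earlier results of these data known. Alternatives were the pseudocount, low-value filters, 4 other scalings, no trend, replicate blocks and leaving out each library. The 6 miRNA samples were not analysed here.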

Additional observations from a re-analysis of the deposited data

How the results depend on the processing

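The count of 16 mitochondrial genes higher at an unadjusted P under 0.05 in limma was 6 when scaled to mitochondrial protein genes, 10 without the trend, and 3 to 29 with each library left out. In other settings it was 12 to 23. None was lower except MT-RNR2 with quantile normalization (1 gene) and when scaled to mitochondrial protein genes (1), and 0 to 1 with a library left out, MT-TL2 without control replicate 1 and MT-RNR1 without control replicate 2. In limma on all 4 libraries no member passed an adjusted p of 0.05 except 9 with the crossed pairing. There 291 of all genes passed as higher and 798 as lower, in place of 4 and 6 in the main fit. A change above 0 was kept by 20 of 37 members under all 14 alternatives. Quantile normalization sets values by rank alone, so a change of 0 there speaks of ranks and not of levels. It gave 0 for 6 genes, MT-ND1, MT-CO1, MT-CO2, MT-ATP8, MT-ATP6 and MT-CO3. Other high genes did change there, MT-ND4 by 0.02, MT-ND4L by 0.04 and MT-RNR2 by −0.14.

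Sign changes all concerned members with an unadjusted P above 0.05. Scaled to mitochondrial protein genes, MT-TF changed by −0.025, MT-ND1 by −0.030, MT-CO1 by −0.11, MT-TK by −0.045, MT-CO3 by −0.030, MT-ND4L by −0.015, MT-ND4 by −0.020, MT-TH by −0.061, MT-TS2 by −0.067, MT-ND5 by −0.11 and MT-TT by −0.075. Median-of-ratios scaling gave 0.034 for MT-RNR1, 0.039 for MT-RNR2 and 0.086 for MT-TL2, quantile normalization gave −0.046 for MT-ND5, and scaling to genes outside mitochondrial DNA gave 0.0019 for MT-TL2. With each library left out, MT-TF ranged from −0.032 to 0.21, MT-CO1 from −0.014 to 0.028, MT-TK from −0.13 to 0.26, MT-TH from −0.070 to 0.17, MT-TS2 from −0.13 to 0.22, MT-TL2 from −0.15 to 0.12, MT-ND5 from −0.013 to 0.028, MT-TT from −0.0028 to 0.078 and the log2 ratio of MT-RNR1 to MT-RNR2 from −0.077 to 0.068. The cause of these changes was not tested.

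Libraries with the same replicate number did not deviate together, with r = −0.10 over all tested genes and −0.42 over the 37 members. The numbers were therefore not taken as pairs. The replicate block gave 13 members higher at an unadjusted P under 0.05 and none with an adjusted p under 0.05, and the crossed pairing, chosen after seeing the data, gave 19 and 9. Over all genes the numbers higher were 670 and 2 with the block, and 1060 and 291 with the crossed pairing. Leaving out a library leaves its group with 1, which limma assumes to vary like the other group. Depth is unknown, and 2 libraries per group limit every value.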
